A study of Mus musculus with 14 samples.

Results

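Imprinted genes are read from only 1 parental chromosome, and 38 of them that lie outside the Meg3 locus were followed here across the Foxa2 series. They were chosen by gene symbol from a list drawn up with earlier results of these data known. All 38 were among the 24054 genes of every table. The series holds 14 RNA sequencing libraries made with a low-input kit from sorted mouse cells, in 6 groups. In the con groups the coding region of 1 Foxa2 allele is replaced by the fluorescent reporter Venus (Foxa2-Venus-KO/+), and in the ko groups that of both alleles is (Foxa2-Venus-KO/Foxa2-Venus-KO), so that the con cells are heterozygous and not wild type. d0con and d0ko (n = 2 each) are embryonic stem cells at day 0, grown on red-fluorescent feeder fibroblasts without the cytokine LIF and sorted as Cherry-negative cells. d3con and d3ko (n = 3 each) were differentiated for 3 days toward endoderm in 12 ng/ml Activin A on Wnt3a-secreting feeders, and sorted as Venus-positive cells. By the study's sample list each genotype is represented by 2 clones: replicate 2 is 1 clone at both days, and replicates 1 and 3 come from the other. d2-FVFn and d2-FVFp (n = 2 each) are Venus-negative and Venus-positive cells of a different embryonic stem cell line (TetON-Foxa2-Venus, T119), which carries a lentiviral, doxycycline-inducible fusion of Foxa2 and Venus and received 40 ng/ml doxycycline for 48 hours, without feeders.

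At an imprinted locus, DNA methylation laid down in the egg or the sperm marks 1 parental copy of a control region, and the mark is kept through the divisions of the early embryo by the zinc finger protein Zfp57, its partner Trim28 and the methyltransferase Dnmt1. The control region then silences a cluster of genes on 1 chromosome, often through a long noncoding RNA such as Airn or Kcnq1ot1, or through an insulator, as between Igf2 and H19. Many paternally expressed genes favour growth of the embryo, and several maternally expressed ones restrain it. By textbook knowledge 21 of the 38 genes are expressed from the paternal copy (among them Igf2, Peg3, Mest, Snrpn and Nnat) and 14 from the maternal copy, some of these only in brain, placenta or for some transcripts (among them H19, Igf2r, Cdkn1c, Phlda2 and Ascl2). For Grb10, Gnas and Ddc the active copy depends on the transcript or tissue. The tables hold gene totals, so no allele was read here, and a level says nothing on whether 1 or both copies were active.

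The libraries held 14142788 to 27278237 expected counts. Foxa2 read 34.8 to 58.6 TPM (RSEM's share of transcripts, a level scaled for gene length) in d3con, 0.11 to 0.19 TPM in d3ko, 2.99 and 2.01 TPM in d2-FVFn, and 169 and 160 TPM in d2-FVFp, so its level followed the labels. The d3ko libraries were uneven in the summed level of 6 pluripotency genes, at 15431, 2668 and 17364 TPM in replicates 1, 2 and 3. This sum was 13787 to 15663 TPM at day 0 and 562 to 985 TPM in d3con. Most of it in d3ko was Dppa5a (14200, 1867 and 15543 TPM), and Sox2, Zfp42 and Klf4 were likewise far lower in replicate 2. Pou5f1 (523, 501 and 944 TPM) lay below every day 0 library in all of d3ko. Neither Pou5f1 nor Nanog (254, 240 and 345 TPM) set replicate 2 of d3ko apart from replicate 1. In d3con both did, with Nanog at 40.2, 246 and 42.5 TPM and Pou5f1 at 63.5, 319 and 59.7 TPM. Sox2 was also highest in replicate 2 there, while Dppa5a, Zfp42 and Klf4 were not. Of the endoderm genes, Dkk1 (385, 44.5 and 313 TPM), Hnf4a, Sox17, Hhex and Gata4 were lowest in that library, and Cer1 was near even. The part of this in the d3con levels below was not tested. The summed level of 6 endoderm genes without Foxa2 was 760 to 1278 TPM in d3con and 29 to 141 TPM in d3ko, so the labelled endoderm markers were low in d3ko. The summed level of 10 fibroblast genes was 12.9 and 15.0 TPM in d0con, 39.2 and 139 TPM in d0ko, 61 to 310 TPM in d3con, 137 to 373 TPM in d3ko and 3.03 to 4.37 TPM in the doxycycline libraries, with Twist2 under the filter for testing. By their effective lengths the 2 replicate 1 libraries of day 3 had 75-base reads, and all 12 others had 50-base reads. In a sorted population fewer cells of a type and less RNA per cell cannot be told apart, which holds for every level below. Nothing in the labels states that replicates were separate cultures, so p-values measure the spread between these libraries.

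The 38 genes together made up 1318 to 1402 TPM at day 0, 2968 to 4124 TPM in d3con, 1719 to 2990 TPM in d3ko and 2541 to 2760 TPM in the doxycycline libraries. Of the 38, 27 had a group mean of at least 1 TPM in every group, 11 reached 100 TPM in some group, and only Rasgrf1, which codes for a guanine nucleotide exchange factor, stayed under 1 TPM in all 6 groups. The paternally expressed genes summed to 565 to 720 TPM at day 0 and 940 to 1172 TPM in d3con, while the maternally expressed ones summed to 464 to 570 and 742 to 842 TPM. The largest step was in the 3 genes of mixed expression, from 203 to 289 TPM at day 0 to 1286 to 2111 TPM in d3con, and it came from Grb10 and Gnas. The heat map of all 38 genes shows these blocks library by library.

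**Figure D1:**
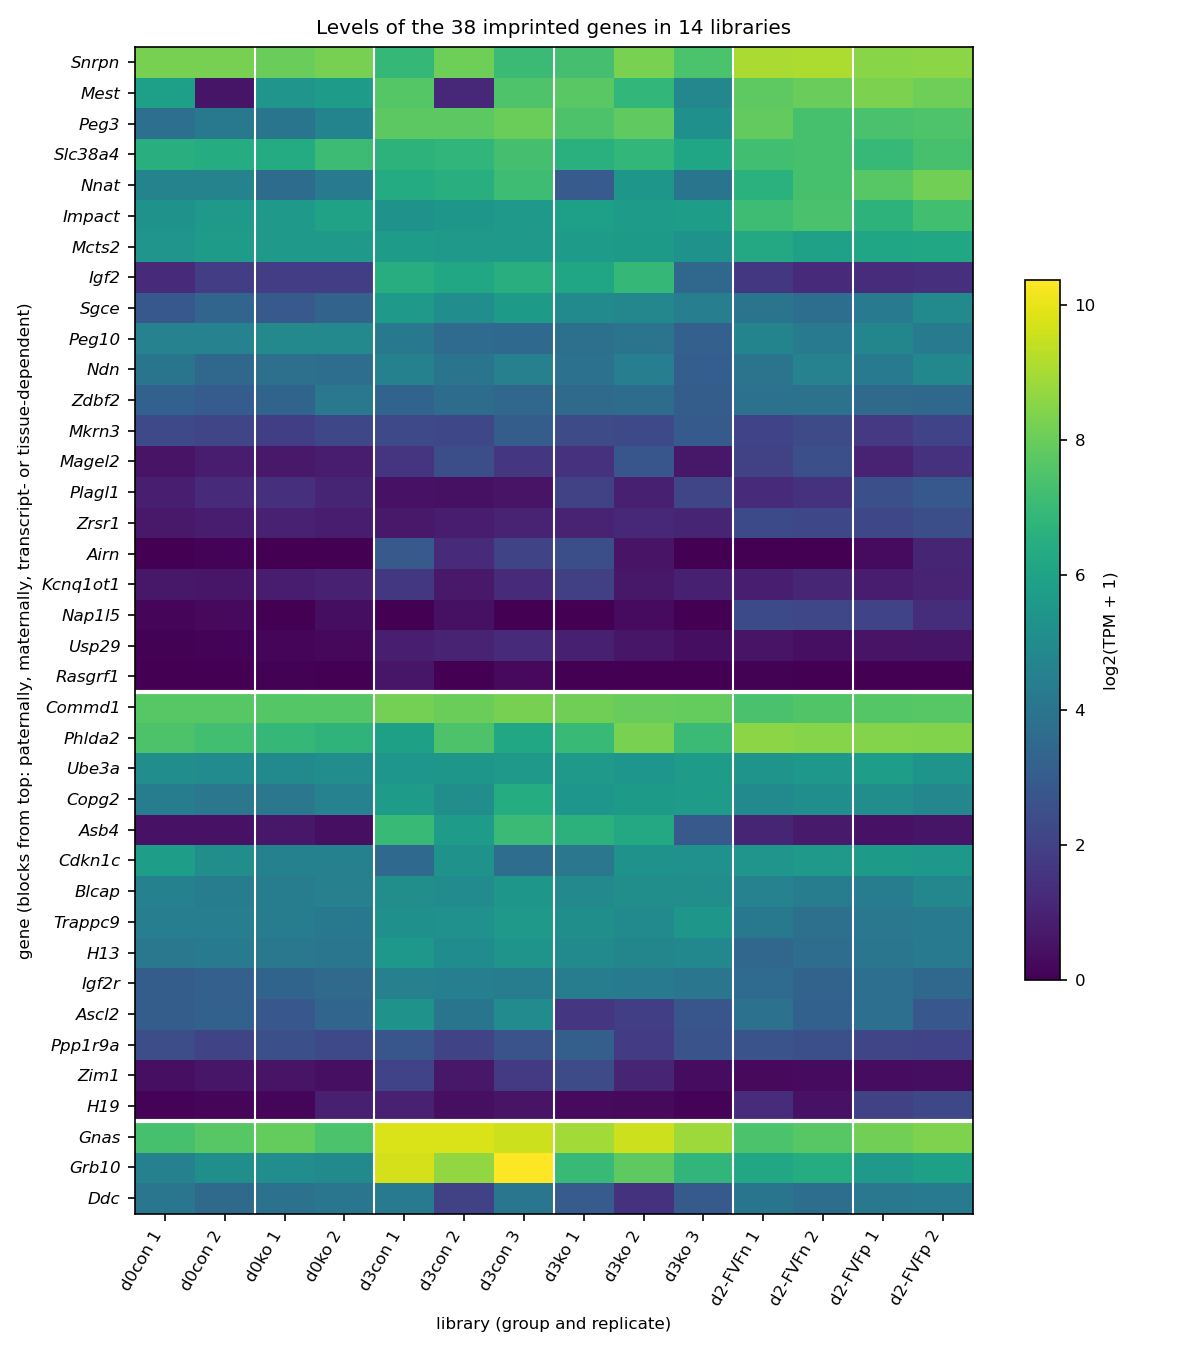
Level of each of the 38 genes (rows) in each of the 14 libraries (columns), as log2(TPM + 1), with paternally expressed genes in the upper block, maternally expressed genes in the middle and Grb10, Gnas and Ddc at the bottom. Mest is dark in replicate 2 of d0con and of d3con (0.52 and 1.20 TPM), and Grb10, Igf2 and Asb4 brighten at day 3.

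Mest, a paternally expressed gene (also Peg1) that codes for a hydrolase-like protein of mesodermal tissue, was nearly absent from 1 con clone. Its level was 57.4 TPM in d0con replicate 1 and 0.52 TPM in d0con replicate 2. At day 3 it was 199, 1.20 and 184 TPM in d3con replicates 1, 2 and 3. Replicate 2 was thus 110 times lower than the other library at day 0, and 165 and 153 times lower at day 3. Behind the low values stood 12.6 and 31.2 expected counts, against 1689 to 5998 counts in the other con libraries. The gene was present in every other library: 41.2 and 52.2 TPM in d0ko, 208, 117 and 26.9 TPM in d3ko, 224 and 255 TPM in d2-FVFn, and 317 and 274 TPM in d2-FVFp.

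Both low libraries came from the same clone. On log2(TPM + 0.5), replicate 2 lay below the rest of its con group by -5.83 at day 0 and -6.82 at day 3. Among 10984 genes with a mean of at least 1 TPM in both con groups, 39 (0.355%) were more than 2-fold off in the same direction at both days, and Mest was the 1 of 27 imprinted genes among them. No other of the 10984 genes lay as far below at both days. In ko, 49 of 11579 genes (0.423%) were off in that way, and 0 of 28 imprinted genes. The comparison rests on 1 clone against another and has no test. Copg2, a coat protein gene whose RefSeq model overlaps the end of Mest on the opposite strand, was 16.3 TPM against 19.5 TPM at day 0 and 33.5 TPM against 52.7 and 85.8 TPM at day 3, so it was detected throughout; the 2 genes share 863 stretches of 50 bases, 21.2% of those of Mest.

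Of the 3 RefSeq start windows of Mest, one with the most Zfp57 hexamers is shown (GRCm38.p6, chr6:30737800-30738099, plus strand), since Mest was the gene nearly absent from 1 clone. Capitals mark TGCCGC, the core hexamer bound by Zfp57, on either strand; it occurs 2 times, beside 17 CpG.

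Mest: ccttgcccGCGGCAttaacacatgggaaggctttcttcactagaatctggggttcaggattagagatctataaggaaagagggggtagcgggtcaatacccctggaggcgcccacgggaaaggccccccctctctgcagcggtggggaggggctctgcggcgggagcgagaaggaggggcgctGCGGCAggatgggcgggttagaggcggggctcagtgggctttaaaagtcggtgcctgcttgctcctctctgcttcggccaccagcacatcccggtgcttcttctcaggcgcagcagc

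With a spread of this size no comparison of Mest passed the test. From day 0 to day 3 the edgeR log2 fold change was 1.96 (SE 1.80, adjusted p = 0.382, n = 3 and 2) in con and 1.17 (SE 1.74, adjusted p = 0.635) in ko. Between ko and con it was 0.65 (adjusted p = 1.0) at day 0 and -0.14 (SE 1.49, adjusted p = 0.966) at day 3. Without the con clone of replicate 2, an alternative added after seeing the data, the con change was 1.55 (SE 0.98, adjusted p = 0.257), and the genotype differences were -0.33 and -0.72. The direction at day 0 therefore turned with that clone.

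**Figure D2:**
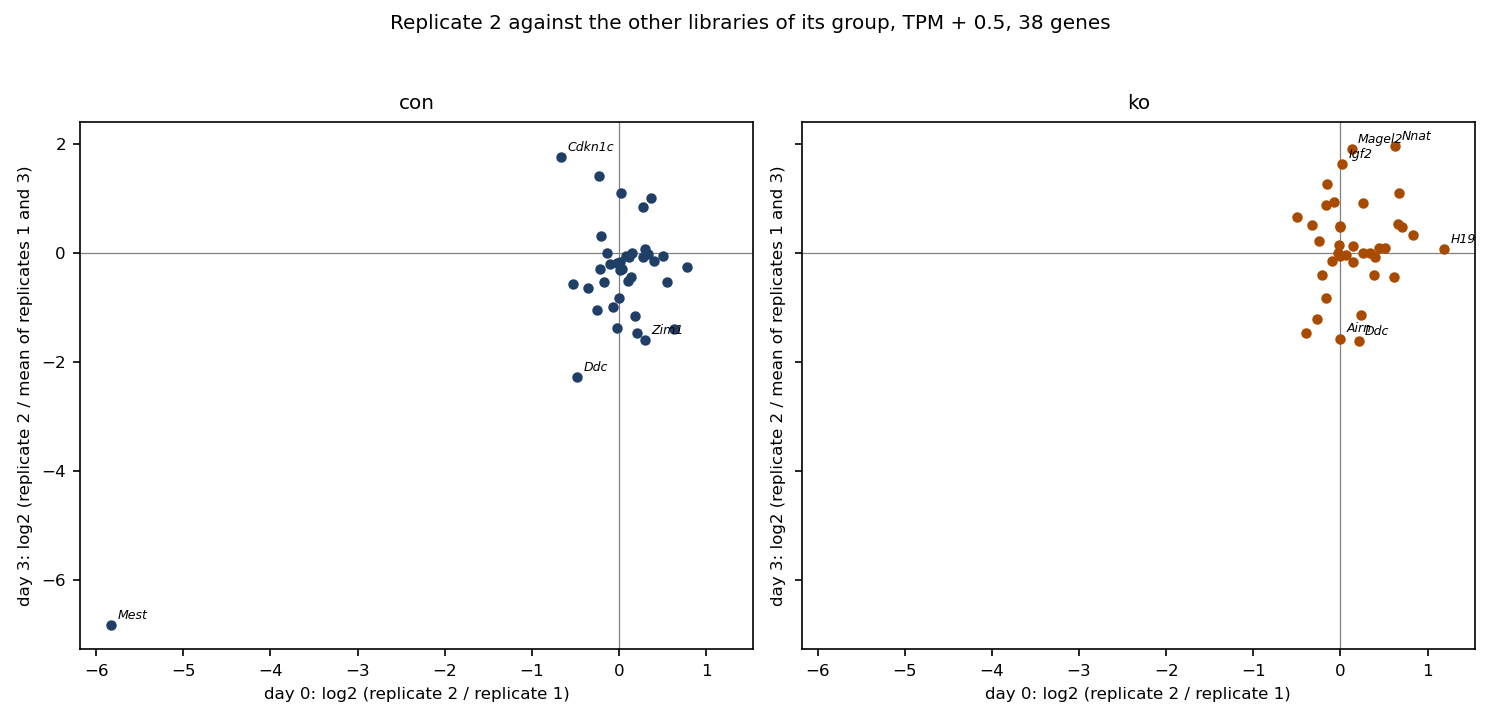
Difference of replicate 2 from the other libraries of its group, as log2 of TPM + 0.5, at day 0 (horizontal) and at day 3 (vertical) for the 38 genes in con (left) and ko (right). Mest lies at -5.83 and -6.82 in con, apart from all the others, and near 0 in ko.

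Of the 36 imprinted genes tested, 11 were higher and 3 lower in d3con than in d0con, Nap1l5 and Rasgrf1 being too low to test. Feeders and sort gate also changed between the days, so their part cannot be told apart from that of differentiation. A gene was called at an adjusted p under 0.05 and a change over 2-fold (edgeR). Called genes made up 38.9% of the 36, beside 35.2% of all 13899 genes. For genes that rose the share was 30.6% against 20.6%, and for genes that fell 8.33% against 14.6%, so the total lay near the background. By class, 5 paternally expressed genes rose and 3 fell of 19, 4 maternally expressed genes rose and 0 fell of 14, and 2 of the 3 mixed genes rose. Without d3con replicate 3 the count was 9. Leaving out d0con replicate 1 or 2 left 1 library in that group and also cost calls. No called change turned direction, and the share of all genes called in these refits is not given here. The median log2 fold changes were 0.42, 0.78 and 2.02, against 0.07 over all genes.

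In ko cells 8 rose and 1 fell of the same 36, 25.0%, beside 17.3% of all genes called; the share that rose was 22.2% against 11.6%, and the share that fell 2.78% against 5.72%. The 9 were Igf2, Peg3, Usp29, Sgce, Copg2, Asb4, Grb10 and Gnas, which rose, and Peg10, which fell, and each was also called in con. The class medians were 0.41 for paternally expressed, 0.52 for maternally expressed and 1.31 for mixed genes, against 0.07 over all genes. The ko calls rested on few libraries: leaving out d0ko replicate 1 or 2 left 1 library in that group, and most calls were then lost. No called change turned direction. The share of all genes called in these refits is not given here, so the loss is not read as particular to these genes. The plot of both changes shows them side by side.

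**Figure D3:**
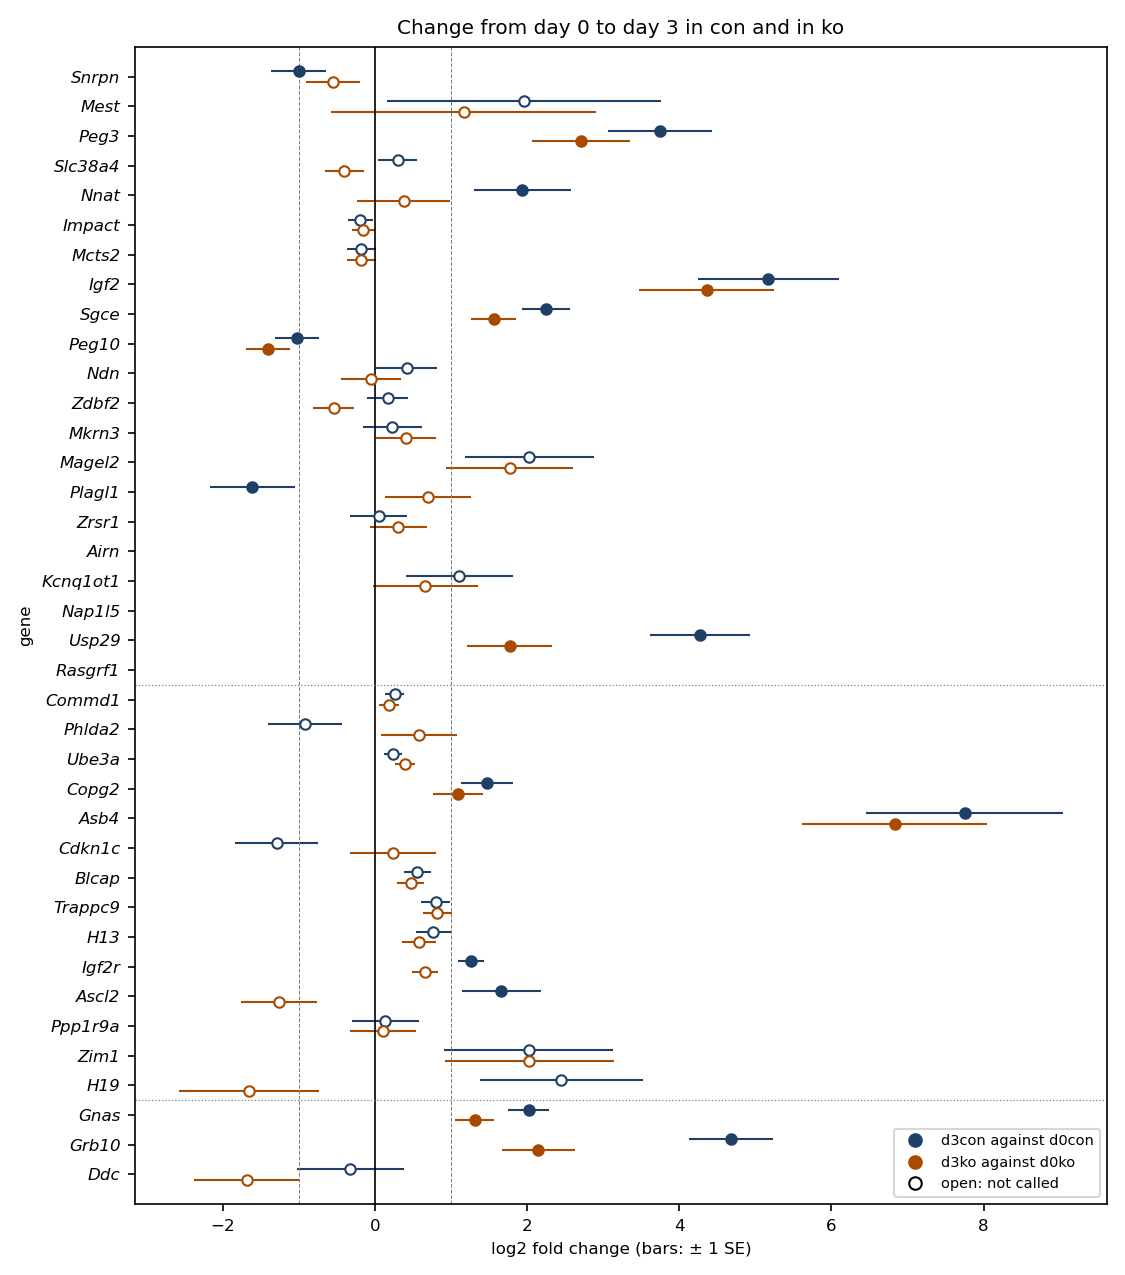
Log2 fold change from day 0 to day 3 with its SE for each imprinted gene in con (dark blue) and ko (brown), with filled points called and dashed lines at 2-fold. Asb4 (7.75 and 6.83) and Igf2 (5.17 and 4.36) moved most among the called genes; Nap1l5 and Rasgrf1 were not tested and Airn, without a count in d0ko, is not drawn.

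Igf2, the insulin-like growth factor of the fetus (paternally expressed), went from 1.36 and 2.70 TPM in d0con to 88.1, 74.4 and 90.8 TPM in d3con. In ko it went from 2.74 and 2.79 TPM to 67.0, 120 and 10.1 TPM, so replicate 3 stood far below the other libraries and still above day 0. The rise was 5.17 (SE 0.93, adjusted p = 0.00206) in con and 4.36 (SE 0.89, adjusted p = 0.00808) in ko on the log2 scale. The ko adjusted p was 0.0799 without d0ko replicate 1 and 0.0673 without replicate 2, with changes of 4.36 and 4.35. H19, the maternally expressed noncoding RNA that lies downstream of Igf2 in the same domain, stayed low: 0.07 and 0.11 TPM in d0con, 0.91, 0.33 and 0.47 TPM in d3con, and 0.25, 0.20 and 0.08 TPM in d3ko. Its change in con was 2.45 (SE 1.07, adjusted p = 0.0803). The RefSeq span of Igf2 overlaps Igf2os, and 62.1% of its 50-base stretches are also in transcripts of other gene models.

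Peg3 and Usp29, a zinc finger gene and a deubiquitinase-like gene that are both paternally expressed, start from 1 divergent promoter on chromosome 7. Their RefSeq promoter windows share 263 bases. Peg3 rose from 12.9 and 17.1 TPM in d0con to 218, 216 and 262 TPM in d3con, and from 15.5 and 25.0 TPM in d0ko to 178, 229 and 36.4 TPM in d3ko. Usp29 was far lower and moved alike in con, from 0.03 and 0.06 TPM (3 and 5 counts) to 0.84, 1.07 and 1.43 TPM. In ko it read 0.13 and 0.16 TPM at day 0 and 0.86, 0.55 and 0.29 TPM at day 3. No day 3 library of either genotype overlapped the day 0 range for either gene, and replicate 3 was the lowest d3ko library for both.

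For Peg3 the log2 fold change was 3.75 (SE 0.68, adjusted p = 0.0021) in con and 2.71 (SE 0.64, adjusted p = 0.0142) in ko. The ko call of Peg3 was lost without d0ko replicate 1 (2.42, adjusted p = 0.122) or replicate 2 (3.06, adjusted p = 0.0686) and without both 75-base libraries (2.55, adjusted p = 0.0519). For Usp29 it was 4.27 (SE 0.66, adjusted p = 0.00102) in con and 1.77 (SE 0.56, adjusted p = 0.0397) in ko. The ko change of Usp29 in the fit with the replicate block was 1.83 (adjusted p = 0.0619), not called, and the call was also lost without d0ko replicate 1 (1.62), d0ko replicate 2 (1.93) or d3ko replicate 1 (1.32). Zim1, the maternally expressed zinc finger gene next to Peg3, read 0.35 and 0.55 TPM in d0con and 3.28, 0.59 and 2.35 TPM in d3con (2.02, SE 1.11, adjusted p = 0.154). The shared promoter is shown from the Peg3 side (RefSeq, GRCm38.p6, chr7:6730370-6730669, minus strand); it holds 13 CpG and 0 matches to TGCCGC.

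Peg3: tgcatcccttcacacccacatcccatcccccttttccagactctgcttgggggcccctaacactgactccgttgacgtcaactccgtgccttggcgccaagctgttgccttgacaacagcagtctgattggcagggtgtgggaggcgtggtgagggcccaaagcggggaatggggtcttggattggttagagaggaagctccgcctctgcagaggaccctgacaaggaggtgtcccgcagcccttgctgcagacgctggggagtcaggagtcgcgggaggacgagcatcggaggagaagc

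In the cluster on chromosome 6 that holds Sgce, Peg10, Ppp1r9a and Asb4 the genes moved in both directions. Asb4, a maternally expressed ubiquitin ligase adaptor, was near 0 at day 0 (0.36 to 0.58 TPM) and reached 128, 50.1 and 134 TPM in d3con and 99.5, 75.7 and 6.52 TPM in d3ko. Its rise was 7.75 (SE 1.29, adjusted p = 0.0014) in con and 6.83 (SE 1.22, adjusted p = 0.00481) in ko. Again d3ko replicate 3 was the lowest library, at 320 counts against 2422 and 2982. Without d0ko replicate 1 or 2 the ko adjusted p was 0.0543 and 0.0529, with changes of 7.24 and 6.52.

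Sgce, the paternally expressed gene for epsilon-sarcoglycan, a membrane protein, rose from 6.31 and 9.44 TPM in d0con to 47.6, 33.1 and 48.6 TPM in d3con (2.25, SE 0.31, edgeR adjusted p = 0.000601). In ko it rose from 6.48 and 9.0 TPM to 29.5, 26.7 and 20.6 TPM (1.56, SE 0.30, adjusted p = 0.00612), a call lost without d0ko replicate 1 (1.36, adjusted p = 0.0751). Peg10, a retrotransposon-derived gene that starts beside Sgce on the opposite strand, fell: 23.1 and 23.5 TPM in d0con against 17.2, 11.2 and 10.7 TPM in d3con, and 28.2 TPM in both d0ko libraries against 13.2, 14.9 and 8.03 TPM. The change of Peg10 was -1.02 (SE 0.29, adjusted p = 0.0173) in con and -1.40 (SE 0.29, adjusted p = 0.00913) in ko. The con value lay at the 2-fold limit: with the replicate number as a block it was -0.83, not called, and with the clone name as a block it was -1.07 and called. It was also lost without d0con replicate 1 (-1.04) or 2 (-1.01) and without d3con replicate 2 (-0.90) or 3 (-0.86), and the ko call without d0ko replicate 1 (-1.38) or 2 (-1.42). Ppp1r9a, a neuronal actin-binding protein gene, stayed between 2.52 and 7.70 TPM in all 14 libraries.

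The genes of the Snrpn domain on chromosome 7 did not move as a block. Snrpn, which codes for a small ribonucleoprotein subunit used in splicing, read 300 and 305 TPM in d0con and 121, 272 and 134 TPM in d3con, so replicate 2 stayed near the day 0 level. The change was -1.0 (SE 0.36, adjusted p = 0.0412), again at the 2-fold limit. It was -0.95 with the replicate block, -0.79 without d3con replicate 1 and -0.82 without d3con replicate 3, none of them called, and without d0con replicate 1 or 2 the adjusted p was 0.125 and 0.135 (-1.02 and -0.99). In ko Snrpn read 254 and 304 TPM at day 0 and 159, 315 and 173 TPM at day 3, with replicate 2 again the highest.

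Magel2, a ubiquitin ligase regulator gene, was also highest in replicate 2 at day 3. It read 2.0, 4.70 and 2.16 TPM in d3con and 1.77, 5.79 and 0.60 TPM in d3ko, against 0.48 to 0.77 TPM at day 0. The same clones differed little at day 0, where replicate 2 lay 0.37 (con) and 0.13 (ko) above replicate 1 on log2(TPM + 0.5). All 3 d3con libraries lay above day 0, while d3ko replicate 3 lay within the day 0 range. Its rise in con was 2.03 (SE 0.85, adjusted p = 0.0709) and was called with the replicate block. Ndn, the growth suppressor necdin, stayed between 7.68 and 27.6 TPM over all libraries, and Mkrn3, a ring finger gene that restrains puberty, between 2.28 and 7.43 TPM. Ube3a, the maternally expressed ubiquitin ligase of the domain, lay between 29.6 and 53.1 TPM, and 24.8% of its 50-base stretches are shared with other gene models, among them the antisense host Snhg14.

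Igf2r, the maternally expressed receptor that clears Igf2 from the cell surface, rose from 7.29 and 8.14 TPM in d0con to 22.2, 21.1 and 20.3 TPM in d3con. The change of 1.26 (SE 0.17, adjusted p = 0.000577) was among the tightest of the called genes. In ko it went from 9.19 and 11.1 TPM to 20.2, 17.98 and 15.8 TPM, by 0.66 (SE 0.17, adjusted p = 0.0169), under the 2-fold limit. Airn, the paternally expressed antisense RNA that silences Igf2r on the paternal copy, had 0 and 1 counts in d0con and 71, 10 and 31 counts in d3con (6.39, 1.45 and 3.33 TPM). In ko it had 0 counts in both day 0 libraries and 30, 3 and 0 counts at day 3. Pooled over libraries this is at least 8.66-fold higher, against a floor of 3 counts for the group, and d3ko replicate 3 did not exceed day 0. Airn lies over the first part of Igf2r on the other strand, and the library kit does not mark strand, so intronic reads of Igf2r and reads of Airn cannot be told apart.

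Copg2 rose in both genotypes, from the con values given above (1.47, SE 0.34, edgeR adjusted p = 0.00632) and from 16.2 and 23.3 TPM in d0ko to 42.1, 49.2 and 50.04 TPM in d3ko (1.09, SE 0.33, adjusted p = 0.0356). The ko call was lost with the replicate block (0.92, adjusted p = 0.0607) and without any 1 of the 5 ko libraries (0.87 to 1.35), and the con call without d0con replicate 2 (1.35, adjusted p = 0.0571). In the domain of Kcnq1ot1, replicate 2 stood above the other d3con libraries for the growth-restraining genes. Cdkn1c, a cyclin-dependent kinase inhibitor, read 53.1 and 33.4 TPM in d0con and 10.5, 39.3 and 12.0 TPM in d3con (-1.29, SE 0.55, adjusted p = 0.0723). Phlda2, which limits growth of the placenta, read 178 and 151 TPM in d0con and 58.7, 175 and 72.0 TPM in d3con (-0.92, adjusted p = 0.139), and 126, 311 and 133 TPM in d3ko. Both were called lower in con once the replicate 2 clone was left out. Kcnq1ot1 itself, the paternally expressed RNA that silences these genes, stayed between 0.56 and 2.88 TPM.

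Grb10, an adaptor that dampens insulin and growth factor signals, had the highest group mean of all 38 genes, 856 TPM in d3con. It rose from 22.5 and 35.1 TPM in d0con to 833, 412 and 1323 TPM in d3con (4.68, SE 0.55, edgeR adjusted p = 0.000352). In ko it went from 32.6 and 29.0 TPM to 128, 220 and 113 TPM (2.15, SE 0.48, adjusted p = 0.0109), so every d3ko library lay above day 0 and below every d3con library. The ko call was lost without d0ko replicate 1 (2.26, adjusted p = 0.0821) or 2 (2.05, adjusted p = 0.086). Ddc, the decarboxylase gene beside it, read 15.8 and 11.1 TPM in d0con, 17.8, 3.08 and 15.9 TPM in d3con, and 6.83, 1.86 and 6.68 TPM in d3ko, with replicate 2 lowest in both. With the replicate block the fall of Ddc in ko was called, and without it the change was -1.68 (SE 0.70, adjusted p = 0.0976).

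Gnas, whose locus makes the stimulatory G protein subunit and several imprinted transcripts, rose from 164 and 203 TPM in d0con to 885, 871 and 771 TPM in d3con (2.02, SE 0.27, edgeR adjusted p = 0.000586). In ko it went from 243 and 172 TPM to 490, 757 and 466 TPM (1.31, SE 0.26, adjusted p = 0.00771), and the call was lost without d0ko replicate 2 (1.06, adjusted p = 0.0739). The gene total does not show which of the transcripts changed. The panels by library show the spread behind each of these values.

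**Figure D4:**
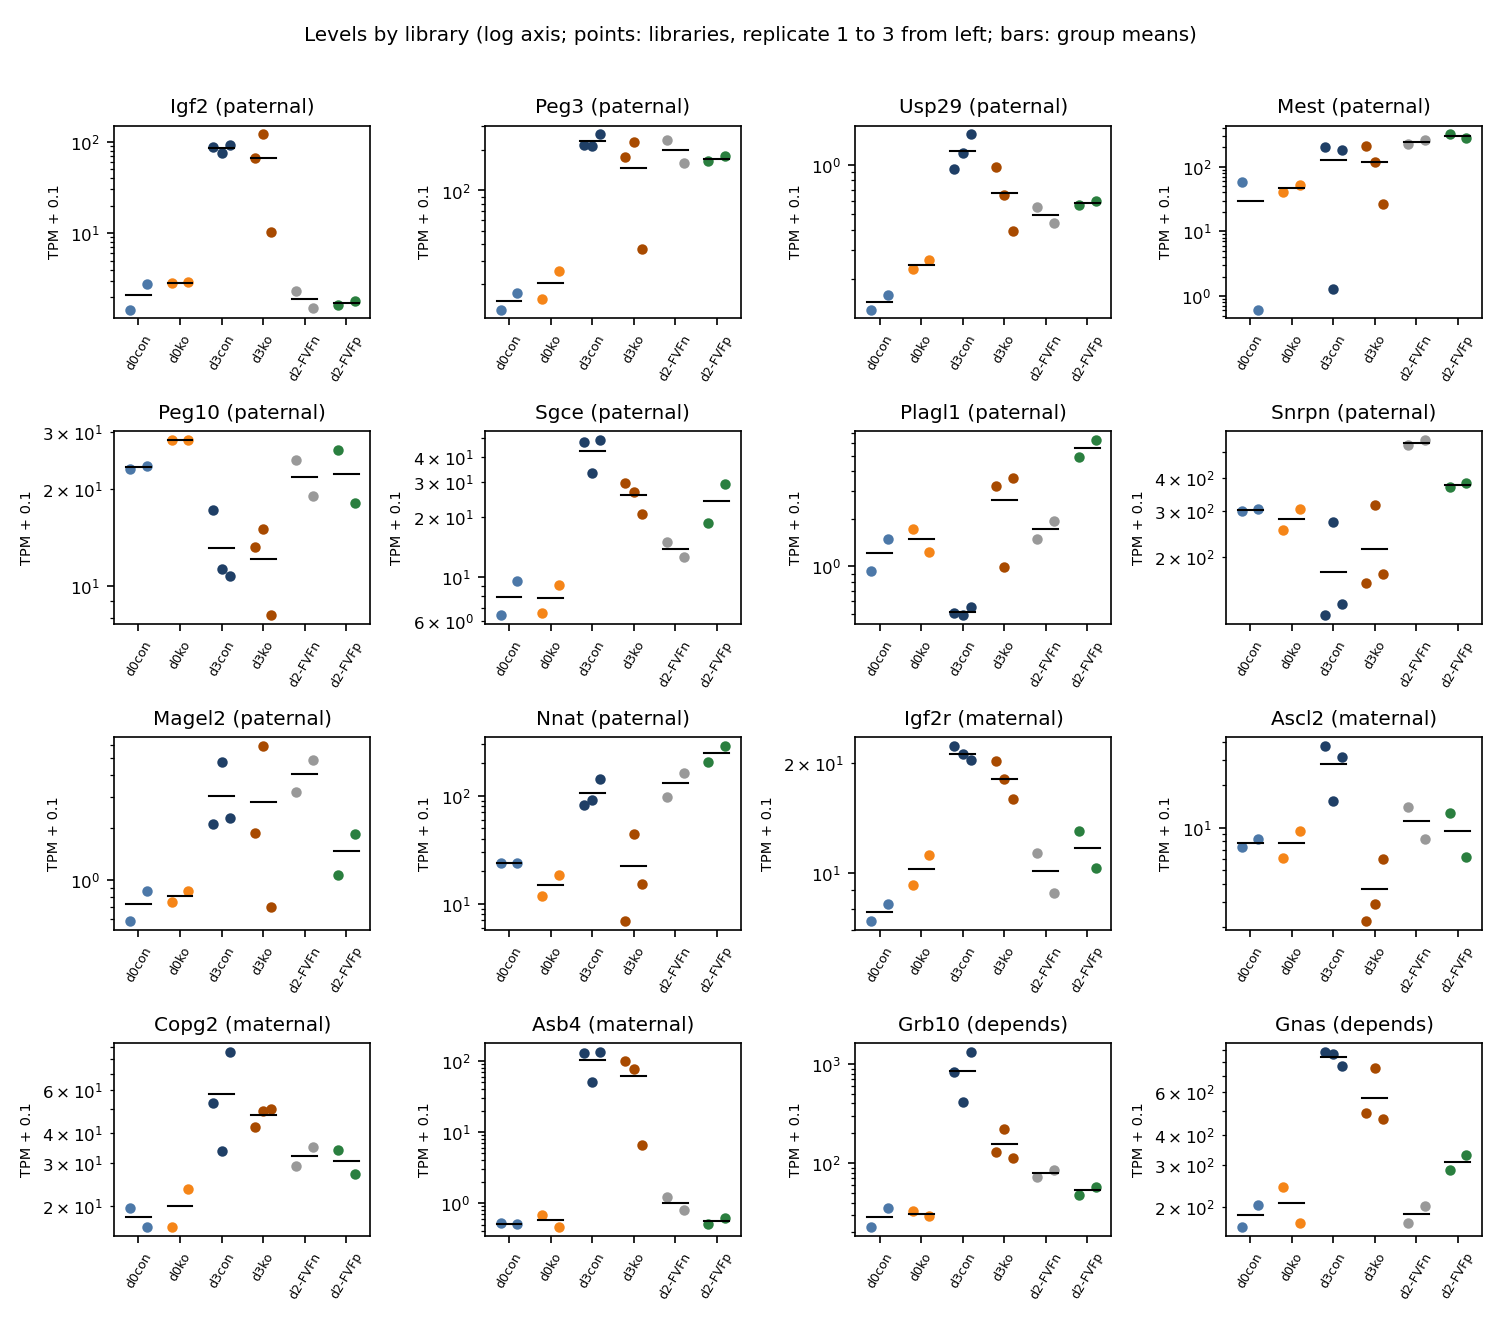
TPM + 0.1 on a log axis in each library (points, replicates from left to right) with the group mean (bar) for the 16 genes called in some comparison or varying at least 4-fold between group means with a highest mean of at least 5 TPM. The d3con points of Grb10 (412 to 1323 TPM) lie above those of d3ko (113 to 220 TPM), and Mest has 1 point near 0 in each con group.

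At day 0 no imprinted gene differed between the genotypes past the test: 0 of 36 were called by edgeR, beside 0.0% of all 13899 genes, 2 had an unadjusted p under 0.05, and DESeq2 called 0. The values above show the groups of 2 side by side. The class medians were 0.24 for paternally expressed, -0.07 for maternally expressed and 0.09 for mixed genes, against 0.02 over all genes.

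Loss of Foxa2 at day 3 went with lower Grb10, Ascl2 and Nnat and with higher Plagl1. These 4 were called of the 36 tested, 11.1%, beside 8.26% of all genes; 1 rose (2.78% against 4.75%) and 3 fell (8.33% against 3.51%). The class medians were -0.14 for paternally expressed, -0.16 for maternally expressed and -1.27 for mixed genes, against 0.02 over all genes. For these 4, picked by a test of the same libraries, the genotypes did not overlap in TPM. Of all 38 genes, called or not, 2 lay wholly higher and 8 wholly lower in d3ko. The share over all genes was not counted, so these 2 numbers are not read as particular to the imprinted genes.

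Ascl2, a maternally expressed transcription factor needed in trophoblast and a known Wnt target, read 7.24 and 8.26 TPM in d0con and 37.6, 15.3 and 31.4 TPM in d3con. In ko it read 6.03 and 9.46 TPM at day 0 and 2.09, 2.78 and 5.87 TPM at day 3. Con cells thus rose (1.66, SE 0.52, adjusted p = 0.0248) where ko cells lay lower (-1.26, SE 0.50, adjusted p = 0.0816), and d3ko was -2.97 (SE 0.48, adjusted p = 0.0109) from d3con. The con rise was not called with the replicate block (1.42, adjusted p = 0.0529), nor without d0con replicate 1 (1.57) or 2 (1.76), nor without d3con replicate 1 (1.38) or 3 (1.62). The ko fall was called without d3ko replicate 3 (-1.83, adjusted p = 0.0189). The genotype call was lost without d3con replicate 3 (-2.93, adjusted p = 0.061). The Ascl2 promoter (RefSeq, GRCm38.p6, chr7:142969215-142969514, minus strand), shown for the called gene that parted most between the genotypes at day 3, has 23 CpG and 0 matches to TGCCGC.

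Ascl2: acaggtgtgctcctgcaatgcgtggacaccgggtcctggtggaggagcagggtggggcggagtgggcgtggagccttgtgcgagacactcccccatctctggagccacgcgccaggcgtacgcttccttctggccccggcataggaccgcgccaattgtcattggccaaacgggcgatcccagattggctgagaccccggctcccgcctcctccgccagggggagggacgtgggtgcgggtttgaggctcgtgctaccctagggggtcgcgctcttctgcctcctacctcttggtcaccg

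Grb10 was 128, 220 and 113 TPM in d3ko against 833, 412 and 1323 TPM in d3con, a difference of -2.48 (SE 0.41, edgeR adjusted p = 0.0123). Without d3con replicate 3 it was -2.09 (adjusted p = 0.061), not called. Of the 2 RefSeq start windows of Grb10, the one that holds the Zfp57 hexamer (GRCm38.p6, chr11:12037371-12037670, minus strand) has 45 CpG and 1 match, in capitals.

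Grb10: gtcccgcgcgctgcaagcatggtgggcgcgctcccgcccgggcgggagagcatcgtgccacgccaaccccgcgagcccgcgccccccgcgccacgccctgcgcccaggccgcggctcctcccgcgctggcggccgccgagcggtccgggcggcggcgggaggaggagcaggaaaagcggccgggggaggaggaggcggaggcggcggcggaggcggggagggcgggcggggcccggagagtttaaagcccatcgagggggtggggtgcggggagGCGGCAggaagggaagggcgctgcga

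Nnat, a paternally expressed small membrane protein gene of neural and endocrine cells, was 23.6 and 23.8 TPM in d0con and 82.6, 90.1 and 141 TPM in d3con (1.94, SE 0.64, adjusted p = 0.0301). In ko it was 11.6 and 18.2 TPM at day 0 and 6.78, 44.1 and 15.2 TPM at day 3, with replicate 2 above the others. The difference between the genotypes at day 3 was -2.27 (SE 0.56, edgeR adjusted p = 0.0337). It was not called without d3con replicate 1 (-2.40) or 3 (-2.03), nor without d3ko replicate 1 (-1.84) or 3 (-2.06). The con rise was lost without d0con replicate 1 (1.92) or 2 (1.96) or d3con replicate 3 (1.70). Nnat lies in an intron of Blcap, which stayed between 19.5 and 43.4 TPM. The Nnat promoter (RefSeq, GRCm38.p6, chr2:157559828-157560127, plus strand) has 17 CpG and 1 match to TGCCGC.

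Nnat: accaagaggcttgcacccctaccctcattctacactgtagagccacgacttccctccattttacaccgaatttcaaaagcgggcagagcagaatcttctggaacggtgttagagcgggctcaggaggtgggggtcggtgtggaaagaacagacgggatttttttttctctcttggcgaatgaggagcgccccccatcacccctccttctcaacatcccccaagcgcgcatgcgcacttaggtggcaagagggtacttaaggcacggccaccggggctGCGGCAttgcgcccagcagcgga

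Plagl1, a paternally expressed zinc finger factor (also Zac1) known to regulate other imprinted genes, moved the other way. It read 0.84 and 1.39 TPM in d0con, 0.41, 0.39 and 0.45 TPM in d3con, 1.63 and 1.13 TPM in d0ko, and 3.10, 0.89 and 3.53 TPM in d3ko. All 3 d3con libraries were below every other library of the 10, and replicate 2 was the low one in d3ko. The change was -1.61 (SE 0.56, adjusted p = 0.0366) in con, and d3ko was 2.58 (SE 0.52, adjusted p = 0.0199) above d3con. The con fall was lost without any 1 of the 5 con libraries (-1.93 to -1.19). The genotype difference was not called without d3con replicate 1 (2.59) or 3 (2.60), nor without d3ko replicate 1 (2.38) or 3 (2.26). The Plagl1 promoter (RefSeq, GRCm38.p6, chr10:13090582-13090881, plus strand), shown for the gene called in the most comparisons beside Grb10, has 26 CpG and 1 match to TGCCGC.

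Plagl1: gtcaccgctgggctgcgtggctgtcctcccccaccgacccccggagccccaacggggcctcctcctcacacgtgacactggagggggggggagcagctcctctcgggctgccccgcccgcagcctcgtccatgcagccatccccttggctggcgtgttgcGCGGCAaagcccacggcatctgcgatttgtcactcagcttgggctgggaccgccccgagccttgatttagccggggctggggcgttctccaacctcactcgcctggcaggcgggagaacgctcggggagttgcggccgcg

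These 4 genotype calls depended on which day 3 libraries entered. Without d3con replicate 3 the count was 0, and without d3con replicate 1, d3ko replicate 1 or d3ko replicate 3 it was 2 (Ascl2 and Grb10). Without d3con replicate 2 it was 6, with Cdkn1c and Phlda2 added. The share of all genes called in these refits is not given here, so the counts are not set against it. Without both 75-base libraries 0 of 36 imprinted genes were called, as were 0.00734% of all genes. When replicates 1 and 3 were summed as 1 clone, again 0 were called, with the share of all genes not given here. The differences themselves kept their direction, from -2.80 and -2.41 for Ascl2 to 2.35 and 2.40 for Plagl1. The pluripotency sums of the d3ko libraries, mostly Dppa5a, moved with Plagl1 and Nnat, while Pou5f1 and Nanog did not set replicate 2 apart. Replicates 1 and 3, with sums near day 0, had the higher Plagl1 (3.10 and 3.53 TPM) and the lower Nnat (6.78 and 15.2 TPM). Replicate 2, with the lowest sum, had the values nearest to d3con. For Grb10 replicate 2 was nearest too (220 TPM), and for Ascl2 replicate 3 was (5.87 TPM). The part of that difference in the calls was not tested.

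The edgeR interaction of genotype and day called none of the 36, and 0.0% of all genes. Even Foxa2, deleted in ko, was not called by it (-7.68, SE 0.87, edgeR adjusted p = 0.0544). This test therefore cannot show that the genes changed alike in both genotypes. The unadjusted p was under 0.05 for 6 of the 36, and DESeq2 called 2, Ascl2 (-2.92, adjusted p = 0.00434) and Grb10 (-2.51, adjusted p = 0.0047). In edgeR these were -2.93 (SE 0.72, adjusted p = 0.164) and -2.53 (SE 0.63, adjusted p = 0.17). Leaving out d3ko replicate 2 made 3 calls, Grb10 (-2.86), Nnat (-2.52) and Plagl1 (2.71), and leaving out d3con replicate 2 made 1, Grb10 (-2.87). A smaller rise in ko than in con is therefore not established by the main test for any of them. How many of all genes these other fits called is not given here.

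Between d2-FVFp and d2-FVFn, 2 of the 35 imprinted genes tested were called, 5.71%, beside 8.43% of all 12943 genes. Both groups are sorted fractions of cells that received doxycycline, so they may differ in more than Foxa2. Plagl1 rose (2.86% against 6.96%), from 1.38 and 1.84 TPM in d2-FVFn to 4.79 and 6.16 TPM in d2-FVFp (1.71, SE 0.26, edgeR adjusted p = 0.00804). Magel2 fell (2.86% against 1.47%), from 3.11 and 4.78 TPM to 0.97 and 1.75 TPM (-1.57, SE 0.37, adjusted p = 0.0299). Without d2-FVFn replicate 1 the count was 1, H19. Plagl1 was lost without d2-FVFn replicate 1 (1.54, adjusted p = 0.055), and Magel2 without d2-FVFn replicate 1 (-1.83) or 2 (-1.22) or d2-FVFp replicate 1 (-1.20). Plagl1 was thus higher both where Foxa2 was absent at day 3 and where it was induced, in different cell lines and libraries.

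Other genes shifted by less than 2-fold or missed the threshold. H19 read 1.47 and 0.41 TPM in d2-FVFn and 3.13 and 3.81 TPM in d2-FVFp (1.87, SE 0.57, adjusted p = 0.063), and was called by DESeq2 (1.86, adjusted p = 0.0269) and without d2-FVFn replicate 1 (3.06, adjusted p = 0.0294). Nnat read 97.7 and 162 TPM against 205 and 287 TPM (0.88, SE 0.25, adjusted p = 0.0553). It was called without d2-FVFn replicate 2 (1.30) and without d2-FVFp replicate 1 (1.11). Grb10 was lower, at 72.4 and 85.8 TPM against 47.8 and 57.9 TPM (-0.64, SE 0.15, adjusted p = 0.028), and so was Snrpn, at 531 and 553 TPM against 367 and 382 TPM (-0.58, SE 0.11, adjusted p = 0.0135). Gnas was higher, at 170 and 201 TPM against 285 and 327 TPM (0.70, SE 0.13, adjusted p = 0.016).

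Igf2 stayed between 1.41 and 2.2 TPM and Asb4 between 0.41 and 1.12 TPM in all 4 doxycycline libraries. These genes, which moved most at day 3, were thus within 1 TPM of the day 0 range also in the libraries with 160 and 169 TPM of Foxa2. The class medians were -0.17, 0.03 and 0.28, against 0.01 over all genes. The plot of both Foxa2 comparisons sets the values beside those of day 3.

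**Figure D5:**
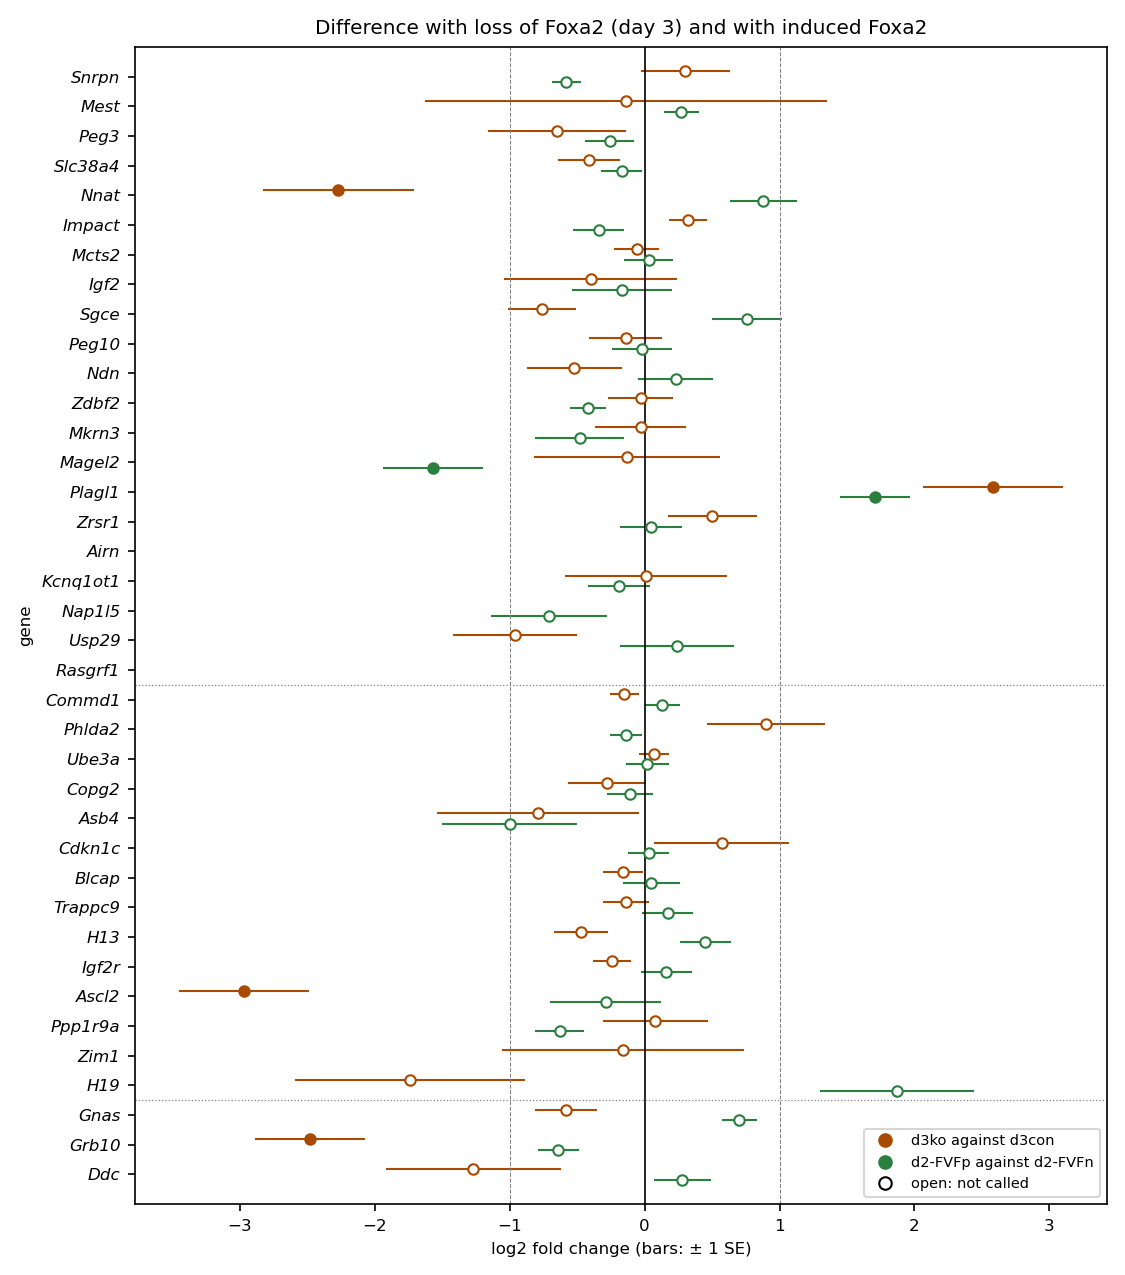
Log2 fold change with its SE for each imprinted gene in d3ko against d3con (brown) and d2-FVFp against d2-FVFn (green), with filled points called and dashed lines at 2-fold. Plagl1 is filled and above 0 in both (2.58 and 1.71), while Grb10, Ascl2 and Nnat are filled only for d3ko against d3con.

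The doxycycline line stood apart from the day 0 cells in several imprinted genes, which is given without a test since line and culture both differ. Peg3 was 161 to 238 TPM in its 4 libraries against 12.9 to 25.0 TPM at day 0, Impact, a translation regulator gene, 103 to 168 against 38.4 to 61.9 TPM, and Nnat 97.7 to 287 against 11.6 to 23.8 TPM. Zrsr1, a splicing factor retrogene, was 3.75 to 4.65 against 0.64 to 0.94 TPM. Nap1l5, a retrogene of the nucleosome assembly family, was 1.58 to 4.02 TPM against at most 0.29 TPM at day 0 and 0.40 TPM at day 3.

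Of the remaining genes, Commd1, a copper and NF-kB regulator gene, lay between 169 and 299 TPM, Slc38a4, an amino acid transporter gene of placenta and liver, between 68.1 and 158 TPM at day 0 and day 3 and 124 and 163 TPM in the doxycycline line, and Mcts2, a retrogene within H13, between 39.4 and 75.05 TPM. Zdbf2, a zinc finger gene, lay between 7.19 and 16.7 TPM. H13, which codes for a signal peptide peptidase, lay between 15.7 and 18.5 TPM at day 0, 25.7 and 45.8 TPM at day 3 and 9.60 and 17.7 TPM in the doxycycline line. Trappc9, a vesicle trafficking subunit gene, rose less than 2-fold in both genotypes, by 0.80 (SE 0.19, edgeR adjusted p = 0.00795) and 0.82 (SE 0.19, adjusted p = 0.014). Mcts2, Zrsr1, Nap1l5 and Nnat each lie inside a host gene, so the shares of reads given to gene and host are uncertain.

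Promoter windows from RefSeq (250 bases before to 50 after each start) were matched to 32 of the 38 genes, with 51 windows; Peg10, Sgce, Impact, H19, Cdkn1c and Trappc9 had none. The letters TGCCGC occurred on either strand in 13 windows, 25.5%, against 11.6% of all 32851 windows. They were in 12 of the 32 genes, 37.5%, against 13.1% of all genes. Among paternally expressed genes the hexamer was in 31.0% of 29 windows and among maternally expressed genes in 21.4% of 14. The windows held a median of 16 CpG, against 7 over all windows. The hexamer itself holds a CpG, and the part of this base content in its share was not tested. The Foxa letters TGTTTAC were in 3.92% of the windows against 3.65%, in Mkrn3 and Nap1l5, and TATTTAC in 1.96% against 3.04%, in Ddc. These are counts of letters in short windows, and windows of 1 gene can overlap.

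Of 16 genes on a list of imprint maintenance, 10 fell and 1 rose in con, so that 62.5% fell beside 14.6% of all genes. In ko 5 fell and 0 rose, 31.2% beside 5.72%. Between the genotypes at day 3, 6 were higher and 1 was lower in d3ko, 37.5% and 6.25% beside 4.75% and 3.51%. The list was chosen with earlier results of these data known, and it also holds genes of new methylation, such as Dnmt3l and Dnmt3b. In con, Dnmt1 (-0.52), Uhrf1 (-0.86) and Ctcf (-0.50) fell by less than 2-fold (edgeR adjusted p = 0.0114, 0.0122 and 0.00861). Zfp445 did not fall (0.10). Zfp57, which holds methylation at imprinted control regions, fell from a mean of 190 to 32.4 TPM in con (-2.59, SE 0.43, edgeR adjusted p = 0.00142), and d3ko was 1.70 (SE 0.40, adjusted p = 0.0279) above d3con. Trim28, its corepressor, fell in con by 1.65 (SE 0.16) and in ko by 1.41 (SE 0.16) on the log2 scale. Dppa3, which protects the maternal genome in the egg, and Dnmt3l, the cofactor of new methylation, fell in con (-4.62 and -6.92), and both were higher in d3ko than in d3con (3.43 and 4.68). Dnmt3b, a methyltransferase that sets new methylation, was the 1 that was lower in d3ko (-2.17, SE 0.31, adjusted p = 0.00985), at a mean of 82.9 against 369 TPM, and it also fell in ko (-1.47, SE 0.33, adjusted p = 0.0111). The median change of the list was -1.33 in con and -0.80 in ko, and 0.49 for d3ko against d3con.

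Genes that neighbour the imprinted ones gave a different count. Of 25 such genes 18 were tested in the fit of 10 libraries. In con 4 rose and 2 fell, 33.3% beside 35.2% of all genes, and in ko 1 rose, 5.56% called beside 17.3%. Osbpl5, a lipid transfer gene beside Phlda2, rose in con (2.70, SE 0.43, edgeR adjusted p = 0.00123), was lower in d3ko (-1.69, SE 0.35, adjusted p = 0.0211) and rose with induced Foxa2 (1.74, SE 0.49, adjusted p = 0.0496). Cobl, an actin nucleator gene next to Grb10, fell in con (-2.56, SE 0.69, adjusted p = 0.0132) while Grb10 rose, and was 2.65 (SE 0.66, adjusted p = 0.0349) higher in d3ko than in d3con, with overlapping libraries.

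Markers of other cell types were read beside these values. Of the 10 fibroblast genes 9 were tested, and 6 rose from day 0 to day 3 in con, 66.7% beside 20.6% of all genes, and 2 in ko, 22.2% beside 11.6%. The ko cells started from a higher level: 9 of the 10, all but Thy1, read higher in both d0ko libraries than in both d0con libraries. Over the 9 tested genes the median log2 fold change was 2.5, against 0.02 over all genes, with 6 at an unadjusted p under 0.05 and 0 called. At day 3, 0 were called between the genotypes. Collagen gene Col1a1 was 30.3 to 180 TPM in d3con, 67.2 to 260 TPM in d3ko and 1.05 to 1.58 TPM in the doxycycline line. Among d3ko libraries the fibroblast sum was highest in replicate 3 (373 TPM), where Igf2, Peg3 and Asb4 were lowest. Most of that sum was Col1a1 (260 TPM). Col1a1, Thy1 and Prrx1 were highest in that library, Col1a2 and Col3a1 in replicate 1, and Dcn, Lum, Postn, Pdgfrb and Twist2 were lowest in replicate 3. In d3con the relation ran the other way, with the sum (61 TPM), Igf2, Peg3 and Asb4 all lowest in replicate 2. The trophoblast sum was 67.3 to 79.4 TPM in d3con and 85.9 to 156 TPM in d2-FVFp, against at most 14.2 TPM elsewhere, and nearly all of it was Krt7 (66.7 to 77.4 TPM in d3con), a keratin that other epithelia also make. The extraembryonic endoderm sum was at most 14.9 TPM and that of 6 mesoderm genes 20.6 to 169 TPM in d3con, highest in replicate 2, and 29.1 to 309 TPM in d3ko, again highest in replicate 2. The part of these cells in the levels of the imprinted genes was not tested.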

How the data were processed

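RNA was extracted with Trizol and a Zymo column kit by the labels (the study's methods name the column kit alone), amplified with a SMARTer low-input kit that does not mark strand and sequenced in 14 libraries. Reads were aligned with STAR to mm10 (GRCm38) and quantified with RSEM (tools and build from the submitters' processing notes and the study's methods, versions not given in the sources used here). The expected counts deposited by the authors are estimated reads of each gene, and a read that matches several genes is divided among them. The TPM values deposited by the authors come from the same runs and correct for effective gene length and depth.

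The 38 genes, their parental classes and the other gene lists were chosen with earlier results of these data known. Groups and replicate numbers came from the sample titles, clone names from the study's sample list. Expected counts were rounded, genes with at least 1 CPM in at least 2 libraries kept (13899 genes for the 10 day 0 and day 3 libraries, 12943 for the 4 doxycycline libraries), scaled with TMM and tested with edgeR 4.0.16 (quasi-likelihood F test, R 4.3.3) over all genes, with Benjamini-Hochberg adjustment. Calls needed an adjusted p under 0.05 and a log2 fold change beyond 1 in size. The SE is the log2 fold change divided by the square root of F. Library totals of 14142788 to 27278237 set the precision. Genes named with values per library were those called in some comparison, or with a highest group mean of at least 5 TPM and at least 4 times the lowest. Mest alone came in by level only. H19, Zim1, Airn, Cdkn1c, Phlda2 and Ddc lie outside this rule and were given by library after their values were seen.

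Replicate numbers pair day 0 and day 3 within a genotype, since the same number marks the same clone (replicate 3 excepted). The deviations of same-numbered libraries correlated by 0.03 and -0.01 in con and by -0.04 and 0.06 in ko. Alternatives were DESeq2 1.42.0, median-of-ratios scaling, no filter, a mean count of at least 50, fits of only the 2 groups, a replicate or clone block, summed replicates of 1 clone, no 75-base libraries, each replicate left out and, added after seeing the data, the con clone of replicate 2 left out. Scripts were tested on simulated data. Promoter windows and gene positions are from RefSeq (GRCm38.p6), and 50-base stretches were matched against the GENCODE transcripts. The lists read beside the 38 genes were imprint maintenance, domain neighbours and markers of pluripotent, endoderm, mesoderm, fibroblast, extraembryonic endoderm and trophoblast cells.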

Additional observations from a re-analysis of the deposited data

Results flagged for a closer look

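Ascl2 was the 1 gene of the 38 for which every con library moved one way from day 0 to day 3 and every ko library the other. In con it rose from 7.24 and 8.26 TPM to between 15.3 and 37.6 TPM, and in ko it went from 6.03 and 9.46 TPM to between 2.09 and 5.87 TPM. The difference between these changes was tested as the interaction of genotype and day and was -2.93 (SE 0.72) on the log2 scale, with an edgeR adjusted p of 0.164. Its adjusted p ranged from 0.00434 (DESeq2) to 0.596 over the alternatives, so the main test did not call it. Groups of 2 or 3 libraries are too small for a test of single libraries that stand apart.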

How the results depend on the processing

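Over the 29 calls of imprinted genes and their alternatives, 323 of 416 refits kept the call, 93 lost it and 0 turned its direction. The 8 calls that held in every one of their refits were Igf2, Peg3, Usp29, Sgce, Igf2r, Asb4, Grb10 and Gnas in con from day 0 to day 3. For d3ko against d3con the count of 4 fell to 0 in the edgeR fit of the 2 groups only, with the replicates of 1 clone summed and without both 75-base libraries, and to 2 without the con clone of replicate 2. For the interaction DESeq2 called 2 in place of 0. Leaving out 1 replicate gave 8 to 14 calls in con and 1 to 11 in ko from day 0 to day 3, 0 at day 0, 0 to 6 for d3ko against d3con, 0 to 3 for the interaction and 1 to 3 for d2-FVFp against d2-FVFn. Where a group was left with 1 library it was assumed to vary like the others. The cause of these changes was not tested beyond the smaller number of libraries. How many of all genes were called in each refit is not given here, so the counts are not read as particular to these genes.

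Mest turned direction: with 1 replicate left out it ranged from -0.34 to 6.51 at day 0 and from -0.87 to 0.39 at day 3. At day 0 it was -0.34 without d0con replicate 2 and -0.33 without that con clone at both days. At day 3 it was 0.56 with the replicate block and 0.10 with the replicates of 1 clone summed. It was 0.39 without d3con replicate 1, 0.14 without d3con replicate 3 and 0.34 without d3ko replicate 3, none of them called.

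With the replicate block 13 imprinted genes were called in con and 8 in ko from day 0 to day 3, and the calls it changed stand beside their values. Between d3con and d3ko the number is only shared (correlations of 0.54, 0.29 and -0.01), as it is between d0con and d0ko (0.11 and 0.11) and in the doxycycline pair (0.29 and 0.29). There the block left 4, 0 and 3 calls, H19 being added in the doxycycline pair. The matching shares of all genes are not given here. At 14142788 to 27278237 counts a library, Rasgrf1 and, in the 10 libraries, Nap1l5 were too low to test. With 2 or 3 libraries a group, a change that was not called is not shown to be absent.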
